A study of Macaca mulatta with 6 samples.

Results

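The genes described here are 45 genes by which astrocytes are recognised, given by a list of symbols that uses no threshold on the values, with the glutamate carriers and connexins left out. A symbol was matched to 35 of the 45 through the rhesus Ensembl identifiers, and all 35 had a mean of at least 10 normalized counts over the 6 libraries, the level for testing, out of 16595 genes tested in all. The lowest was LCN2, with a mean of 20.6. The other 10 (HEPACAM, PRODH, FABP7, MT3, F3, CST3, S100B, SOX9, GLIS3 and RANBP3L) were not analysed here.

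Astrocytes are the glial cells that buffer potassium and water, feed neurons with metabolites, clear transmitters and line vessels with their endfeet. Genes that serve these tasks are often called homeostatic. After injury or inflammation astrocytes become reactive, a state in which the intermediate filaments GFAP and vimentin and several secreted proteins are typically raised through pathways that include JAK-STAT3. Astrocytes carry opioid receptors in some settings and are studied as partners of neurons in drug dependence.

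RNA with poly(A) tails was sequenced in 6 libraries from male rhesus monkeys (Macaca mulatta) aged 3 to 4 years, of cells that the labels call purified adult cortical neurons. The 3 morphine libraries came from animals that had received morphine, an opioid agonist, by 3 subcutaneous injections daily over 90 days, in doses that began at 3 mg/kg and reached 15 mg/kg on day 29. The 3 saline libraries came from animals given 0.5 mL/kg of saline on the same schedule, and no genetic change is named for either group. The protocol gives 4 monkeys, 2 in each group, so the 3 libraries of a group cannot all be separate animals. P-values over libraries therefore understate the uncertainty over animals and reflect only the spread among these samples, and treatment and animal cannot be told apart.

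Recovered reads lay between 31238653 and 36345095 per library. In libraries labelled as neurons, all 12 neuron markers of the list used here were measured, and so were markers of every other cell type searched for. Between the groups, 6 of the 12 neuron markers fell and 2 rose, and their summed level was 324456 to 325314 normalized counts in the morphine and 385292 to 393986 in the saline libraries. There were 4 rises (TREM2 by 1.69 and CSF1R by 0.87 on the log2 scale) and 2 falls among 7 microglia markers. The falls were P2RY12 (log2 fold change -0.47) and PTPRC (-0.51). The summed levels of the 7 were 7724 to 8207 normalized counts in the morphine and 5335 to 5683 in the saline libraries. Of 7 oligodendrocyte markers 3 rose and 2 fell, with summed levels of 265811 to 268049.6 normalized counts in the morphine and 259685 to 264231 in the saline libraries, and of 6 precursor markers 4 rose and 0 fell, with 23654 to 24312 normalized counts in the morphine and 19520.5 to 19701 in the saline libraries. Of 7 endothelial and mural markers 1 rose and 3 fell (9738 to 10219 normalized counts in the morphine and 11787 to 11993 in the saline libraries), of 6 fibroblast markers 3 rose and 0 fell (7619 to 7991 normalized counts in the morphine and 6158 to 6254 in the saline libraries), and of 3 ependymal markers 2 rose and 0 fell (772 to 889 normalized counts in the morphine and 472 to 540.3 in the saline libraries). Most of the fibroblast sum is PDGFRA, also in the precursor list, with means of 5042 in the morphine and 4522 in the saline libraries. The fibroblast rises were COL1A1 by 3.54, COL1A2 by 2.34 and COL3A1 by 1.11 on the log2 scale, while DCN, LUM and PDGFRA did not pass. Every marker matched in these lists had a mean above 10. At a limma adjusted p under 0.05, 66.7% of the neuron, 85.7% of the microglia, 71.4% of the oligodendrocyte and 66.7% of the precursor markers were called. Of the endothelial and mural, fibroblast and ependymal markers 57.1%, 50% and 66.7% were called. The share was 27.9% among all genes tested and 38.4% among genes with a mean of 1000 or more. The part of the marker shifts in the results below was not tested. In bulk libraries, fewer cells of a type and less RNA per cell cannot be told apart.

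Across the 35 genes, 15 fell and 4 rose with morphine at a limma adjusted p under 0.05, and 16 did not pass. Among all genes tested 27.9% were called, with 12.9% called as rises and 15.0% as falls. Called genes are more frequent among abundant ones: of the 6441 genes with a mean of 1000 or more, 38.4% were called (16.7% rises, 21.7% falls), and 28 of the 35 astrocyte genes are in that range. The astrocyte genes were called in 54.3% of cases, and the excess over both backgrounds lay in the falls. For 18 of the 35 the 3 morphine libraries all lay below the 3 saline libraries, and for 5 they all lay above, where 24.6% and 24.1% of all genes did so (48.7% together). The median log2 fold change was -0.13 over the 35 genes and 0.0067 over all genes tested. Leaving out morphine library 1, 2 or 3 lowered the share of all genes called to 16.2%, 15.3% or 16.6%, and leaving out saline library 1, 2 or 3 to 18.5%, 17.4% or 19.2%. In these fits 10 to 14 of the 35 fell and 3 to 5 rose, with the fewest falls, 10, without morphine replicate 2. On recovered reads 14 fell and 5 rose in DESeq2 (36.8% of all genes called) and 15 fell and 5 rose in edgeR (34.0%). In the authors' deposited table the falls numbered 14 and the rises 5 (34.1% of all genes called), and at a limma adjusted p under 0.01, 6 fell and 2 rose (9.23%).

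**Figure D1:**
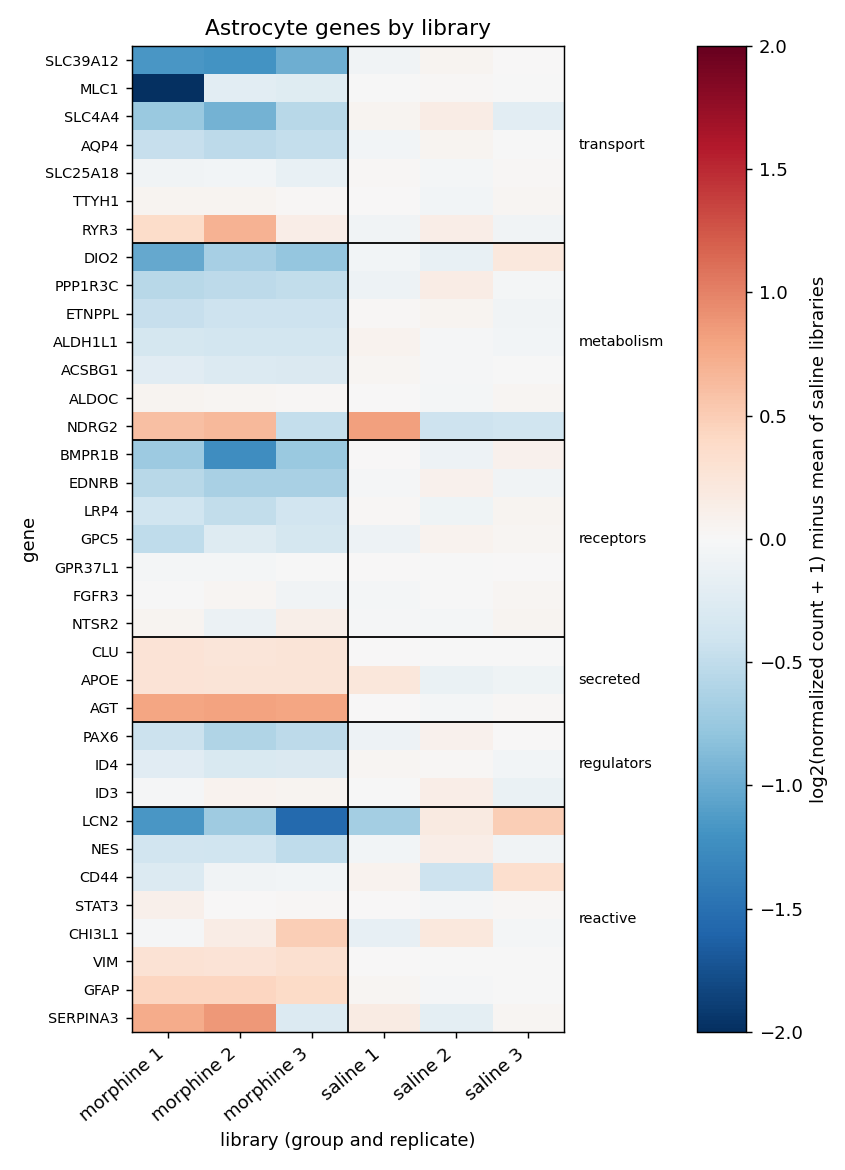
Levels of the 35 astrocyte genes (rows, grouped by role) in the 6 libraries (columns), as log2(normalized count + 1) minus the mean of the saline libraries; blue is lower and red is higher. Most transport, metabolism and receptor genes are blue in all 3 morphine columns, AGT, GFAP, VIM and CLU are red there, and MLC1 and NDRG2 differ between libraries of 1 group.

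Homeostatic and reactive genes differed in their counts. Of 24 homeostatic genes (transport, metabolism, receptors and secreted proteins) 12 fell and 2 rose, with a median log2 fold change of -0.31. Of 8 reactive genes 2 rose and 1 fell, with a median of 0.13. The share called was 58.3% of the homeostatic and 37.5% of the reactive genes. Among all genes tested it was 27.9%, and among those with a mean of 1000 or more 38.4%. In that range were 21 of the 24 homeostatic but 4 of the 8 reactive genes. The part of abundance in the difference between the 2 shares was not tested. The medians by library, taken over the homeostatic genes relative to the saline mean, were -0.29, -0.23 and -0.31 in morphine libraries 1, 2 and 3, against 0.01, -0.01 and -0.0007 in saline libraries 1, 2 and 3. Over the reactive genes they were 0.04, 0.08 and -0.01 in the morphine libraries and 0.01, -0.01 and 0.01 in the saline libraries. The homeostatic medians of the groups thus did not overlap and the reactive ones did. The difference between the lists is a description, since the genes were assigned to them by hand and the lists were not tested. With GFAP counted as homeostatic, 3 homeostatic genes and 1 reactive gene rose.

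Among the genes of transport, water and ion balance, 3 of 7 fell and 0 rose. The share called was thus 42.9%, near the 38.4% of genes with a mean of 1000 or more (27.9% of all genes tested). SLC39A12 (ENSMMUG00000011624), a zinc carrier of astrocytes, had the largest called fall of the 35 genes. It had 1311, 1278 and 1490.3 normalized counts in morphine libraries 1, 2 and 3, against 2814, 3070.1 and 2952 in saline libraries 1, 2 and 3. Every morphine library lay below every saline library, and the log2 fold change was -1.12 ± 0.0803 (SE) with a limma adjusted p of 0.00246. AQP4 (ENSMMUG00000014934), the water channel of astrocyte endfeet, had 17750.2, 16977 and 17538 normalized counts in morphine libraries 1, 2 and 3, against 23459, 25293 and 24220.0 in saline libraries 1, 2 and 3. The groups did not overlap, and AQP4 fell by 0.48 ± 0.0541 (SE) on the log2 scale with a limma adjusted p of 0.00519.

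SLC4A4, the sodium bicarbonate cotransporter that sets pH around astrocytes, had 7987, 6882 and 9028 normalized counts in morphine libraries 1, 2 and 3, against 13835, 14733 and 11524 in saline libraries 1, 2 and 3. All morphine values were below all saline values, but each group spread over a wide range, and the log2 fold change was -0.75 ± 0.142 (SE) (limma adjusted p = 0.0187). Its call was lost without either of morphine replicates 1 and 2 or saline replicates 1 and 2 (adjusted p = 0.0586, 0.0517, 0.0583 and 0.0575), where its alternatives ranged from 7.67e-06 to 0.0852.

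MLC1 (ENSMMUG00000009119), a membrane protein of astrocyte junctions whose loss causes a leukodystrophy with cysts, was set by 1 library. It had 3508, 12209 and 11999.9 normalized counts in morphine libraries 1, 2 and 3, against 14054, 14328 and 14121 in saline libraries 1, 2 and 3. Morphine library 1 stood far below the other 5, while morphine libraries 2 and 3 were close to, and below, the saline libraries. The log2 fold change was -0.82 ± 0.521 (SE) and did not pass (limma adjusted p = 0.291). Without morphine replicate 1 it was -0.23 with an adjusted p of 0.0639, and over all alternatives the adjusted p ranged from 0.0639 to 0.447.

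RYR3, a calcium release channel of internal stores, had 1121, 1422 and 956 normalized counts in morphine libraries 1, 2 and 3, against 836, 961 and 830.0 in saline libraries 1, 2 and 3. Its groups overlapped, the log2 fold change was 0.40 ± 0.163 (SE), and it did not pass in limma (adjusted p = 0.13), although it did in DESeq2 on recovered reads (adjusted p = 0.00495; alternatives from 0.00495 to 0.26). SLC25A18, a mitochondrial glutamate carrier, had a log2 fold change of -0.09 (95% interval -0.22 to 0.05). For the membrane protein gene TTYH1 it was 0.04 (95% interval -0.08 to 0.17). Neither passed, and these intervals, like those below, are not adjusted for multiple tests.

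Metabolic genes fell in 5 of 7 cases and rose in 0. The share called was 71.4%, where it was 27.9% of all genes tested and 38.4% of those with a mean of 1000 or more. ETNPPL (ENSMMUG00000011903), which degrades phosphoethanolamine, had 6666, 6917 and 6928 normalized counts in morphine libraries 1, 2 and 3, against 9359, 9514 and 8762 in saline libraries 1, 2 and 3. Its libraries fell into separate ranges by group, with a log2 fold change of -0.43 ± 0.0561 (SE) and a limma adjusted p of 0.00729. Its alternatives ranged from 6.92e-21 to 0.0524. PPP1R3C, a subunit that directs a phosphatase to glycogen and favours its storage, had 4421, 4525 and 4612 normalized counts in morphine libraries 1, 2 and 3, against 6009, 7159 and 6322 in saline libraries 1, 2 and 3. Its morphine libraries were close together and its saline libraries spread more, and it fell by 0.52 ± 0.08 (SE) on the log2 scale with a limma adjusted p of 0.0107. The alternatives for PPP1R3C ranged from 1.6e-16 to 0.0517.

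ALDH1L1 (ENSMMUG00000012488), a folate enzyme used as a general astrocyte marker, had 2304, 2278 and 2258 normalized counts in morphine libraries 1, 2 and 3, against 3084, 2894 and 2806 in saline libraries 1, 2 and 3. The morphine libraries differed from each other by less than the gap to the lowest saline library, and the log2 fold change was -0.36 ± 0.0562 (SE) (limma adjusted p = 0.0112). The alternatives for ALDH1L1 ranged from 1.12e-07 to 0.0569. DIO2, the deiodinase that activates thyroid hormone in astrocytes, was much lower in counts, with 81.8, 105 and 97.0 normalized counts in morphine libraries 1, 2 and 3, against 161, 150.3 and 193 in saline libraries 1, 2 and 3. All morphine values were below all saline values, and the log2 fold change was -0.82 ± 0.138 (SE) (limma adjusted p = 0.0136). The alternatives for DIO2 ranged from 0.00404 to 0.0553.

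ACSBG1, an acyl-CoA synthetase, fell by 0.26 ± 0.0482 (SE) on the log2 scale. Its call was lost without morphine replicate 2 or 3 or saline replicate 1 (limma adjusted p = 0.0613, 0.059 and 0.0531; alternatives from 1.42e-09 to 0.0737). ALDOC, the aldolase of brain glycolysis, showed a log2 fold change of 0.03 (95% interval -0.09 to 0.16) and did not pass.

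NDRG2 (ENSMMUG00000020747), a cytoplasmic protein abundant in astrocytes, split the libraries across the groups. It had 88706, 90879 and 41925 normalized counts in morphine libraries 1, 2 and 3, against 102283, 43603 and 44270.2 in saline libraries 1, 2 and 3. Morphine libraries 1 and 2 and saline library 1 were high, the other 3 were low, and no library lay between. Whether reads were assigned to NDRG2 and MLC1 alike in every library was not tested. The log2 fold change of 0.26 ± 0.479 (SE) has a wide 95% interval, -0.95 to 1.47, and did not pass (limma adjusted p = 0.718). Of the 35 genes, 2 had these 3 libraries above the other 3, NDRG2 and SERPINA3, which is described below.

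**Figure D2:**
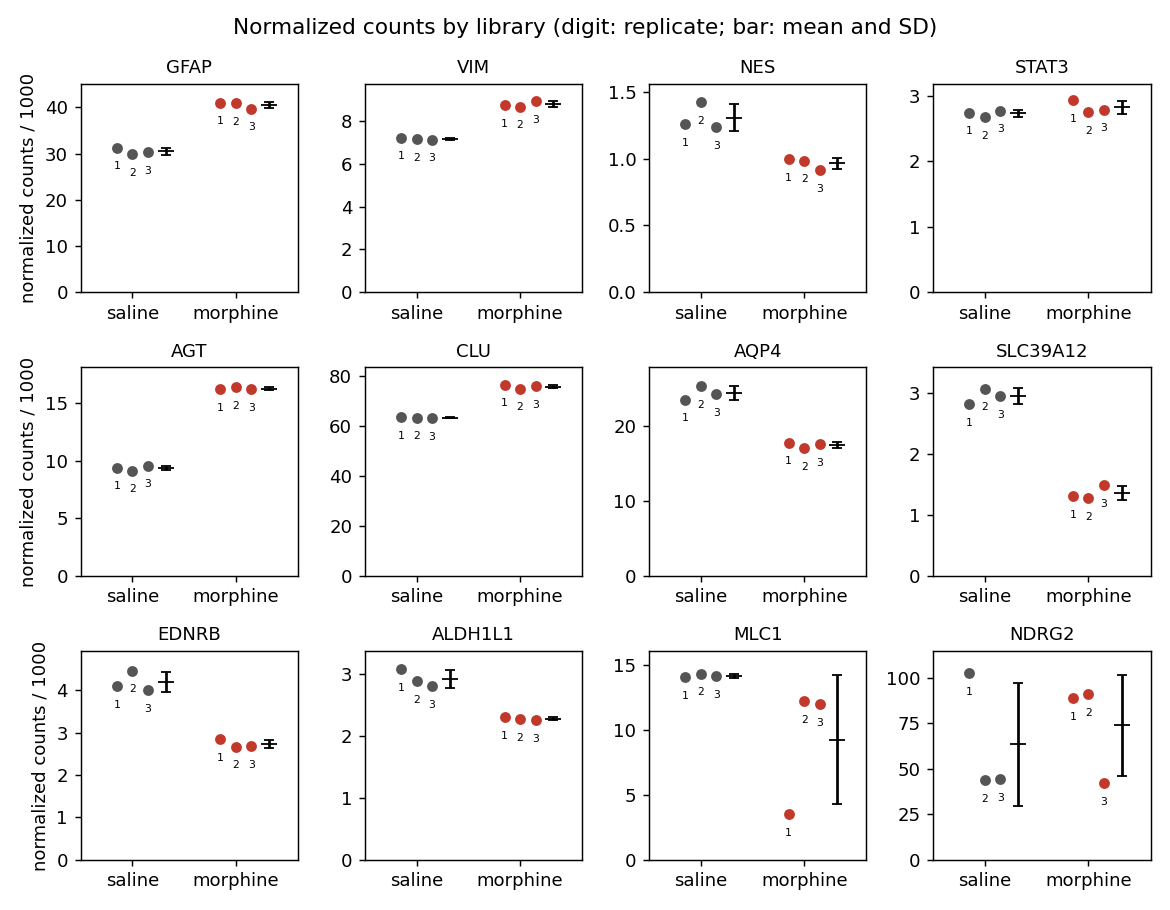
Normalized counts (axes from 0, divided by 1000) of 12 astrocyte genes in the saline (grey) and morphine (red) libraries; the digit under a point is the replicate, and the black bar is the mean with the SD of 3 libraries. GFAP, VIM, AGT and CLU are higher and NES, AQP4, SLC39A12, EDNRB and ALDH1L1 lower in all morphine libraries, STAT3 overlaps, morphine library 1 is apart for MLC1, and NDRG2 is split within both groups.

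Surface receptors fell in 4 of 7 cases and rose in 0. Thus 57.1% were called, beside 27.9% of all genes tested and 38.4% of those with a mean of 1000 or more. EDNRB (ENSMMUG00000005131), the endothelin receptor of astrocytes, had 2851, 2671 and 2682 normalized counts in morphine libraries 1, 2 and 3, against 4105, 4468 and 4009 in saline libraries 1, 2 and 3. The groups were separate, and the log2 fold change was -0.62 ± 0.0657 (SE) with a limma adjusted p of 0.00472. LRP4, a receptor of agrin and a modulator of Wnt signalling, had 2755, 2601 and 2798 normalized counts in morphine libraries 1, 2 and 3, against 3718, 3450.0 and 3779 in saline libraries 1, 2 and 3. It too had separate groups, with a log2 fold change of -0.42 ± 0.0625 (SE) and a limma adjusted p of 0.00963.

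BMPR1B, a receptor of bone morphogenetic proteins, which promote the astrocyte fate, had 275, 192 and 271 normalized counts in morphine libraries 1, 2 and 3, against 459.8, 427 and 484 in saline libraries 1, 2 and 3. Morphine library 2 was the lowest, but all morphine values were below the saline values, and the log2 fold change was -0.91 ± 0.159 (SE) (limma adjusted p = 0.0151). GPC5, a heparan sulfate proteoglycan, had 258, 307 and 287 normalized counts in morphine libraries 1, 2 and 3, against 339, 385 and 374 in saline libraries 1, 2 and 3. It fell by 0.37 ± 0.0902 (SE) on the log2 scale with a limma adjusted p of 0.0367, but missed the threshold in DESeq2 (adjusted p = 0.0584) and in each fit that left out a library (adjusted p between 0.052 and 0.102), and its alternatives ranged from 0.0243 to 0.102.

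For 3 receptor genes no difference was detected. The log2 fold change of FGFR3, a receptor of fibroblast growth factors, was -0.02 (95% interval -0.15 to 0.12). GPR37L1, a receptor proposed for prosaposin-derived peptides, had -0.03 (95% interval -0.14 to 0.09). NTSR2, a neurotensin receptor, had 0.02 (95% interval -0.18 to 0.22). None of these 3 intervals overlapped those of EDNRB (-0.78 to -0.45), LRP4 (-0.58 to -0.27) or BMPR1B (-1.31 to -0.50), whereas that of GPC5 (-0.59 to -0.14) overlapped all 3.

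Secreted proteins went the other way: 2 of the 3 measured rose and 0 fell. AGT (ENSMMUG00000005881), the angiotensin precursor that astrocytes make in the brain, had 16237, 16418 and 16225 normalized counts in morphine libraries 1, 2 and 3, against 9417, 9145 and 9571 in saline libraries 1, 2 and 3. It had the smallest adjusted p of the 35 genes, with tight libraries in both groups, a log2 fold change of 0.80 ± 0.0469 (SE) and a limma adjusted p of 0.00181. CLU (ENSMMUG00000021516), the extracellular chaperone clusterin, had 76626, 75099 and 76029.8 normalized counts in morphine libraries 1, 2 and 3, against 63684, 63433 and 63193 in saline libraries 1, 2 and 3. The groups were separate by far more than their spread, and the log2 fold change was 0.26 ± 0.0442 (SE) (limma adjusted p = 0.0141). The call for CLU was lost by a small margin without morphine replicate 1 (adjusted p = 0.0512; alternatives from 1.37e-28 to 0.0748).

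APOE (ENSMMUG00000014305), the main lipid carrier of the brain, is made by astrocytes and also by microglia, 4 of whose 7 markers rose and 2 fell as given above. It had 125056, 123589.8 and 122689 normalized counts in morphine libraries 1, 2 and 3, against 120274, 93492 and 97146 in saline libraries 1, 2 and 3. Saline library 1 was close to the morphine libraries, and the other 2 saline libraries were lower. The log2 fold change of 0.27 ± 0.108 (SE) did not pass in limma (adjusted p = 0.128). APOE passed without saline replicate 1 (log2 fold change 0.38, adjusted p = 0.026), in edgeR (adjusted p = 0.0394) and in limma with an intensity trend (adjusted p = 0.0337), and its alternatives ranged from 0.026 to 0.274.

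**Figure D3:**
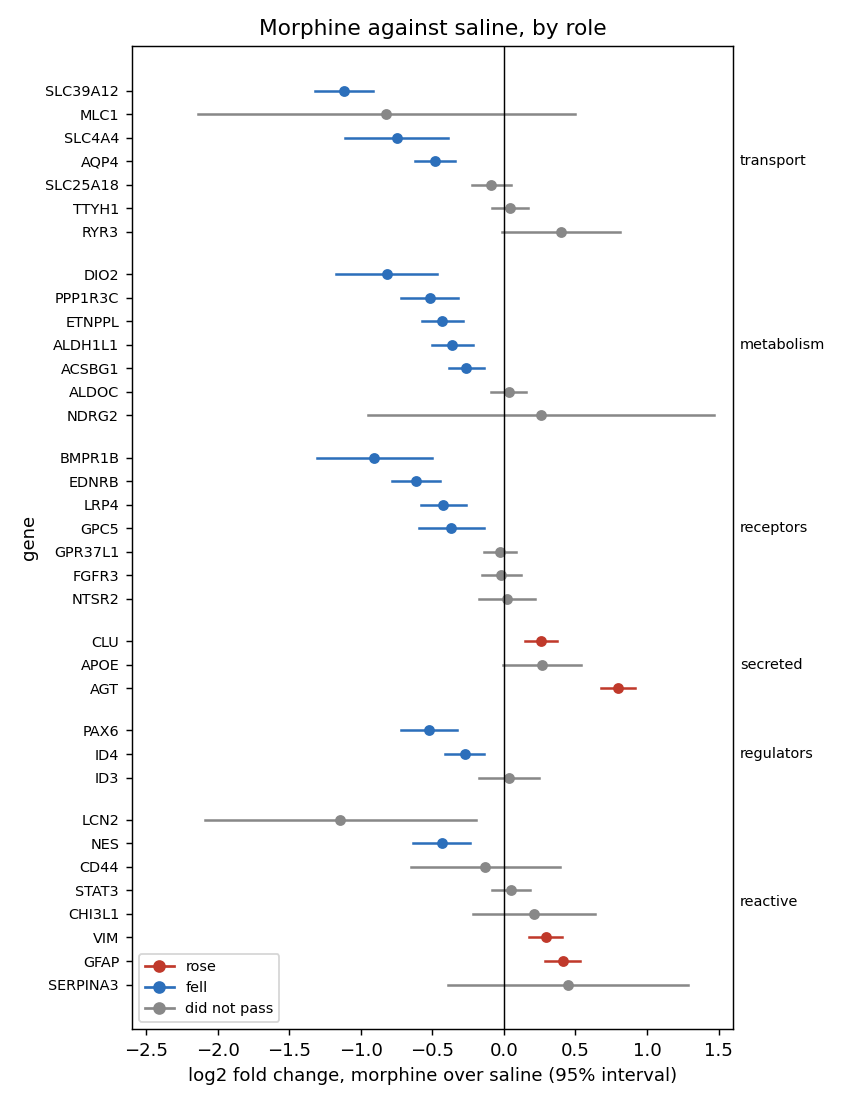
Log2 fold changes of morphine over saline (points) with 95% intervals from limma, not adjusted for multiple tests, for the 35 astrocyte genes by role; red rose, blue fell and grey did not pass at an adjusted p under 0.05. Falls make up most of the metabolism and receptor genes and 3 of 7 transport genes, the secreted genes lie to the right of 0, and the reactive genes lie on both sides.

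Of the 3 regulators of transcription measured, 2 fell and 0 rose. This 66.7% of 3 genes stands beside 27.9% called of all genes tested and 38.4% of those with a mean of 1000 or more. PAX6 (ENSMMUG00000016810), a homeobox factor kept in adult astrocytes, had 2866, 2551 and 2707 normalized counts in morphine libraries 1, 2 and 3, against 3614, 4121 and 3921 in saline libraries 1, 2 and 3. Its groups were separate, with a log2 fold change of -0.52 ± 0.0773 (SE) and a limma adjusted p of 0.00986. The alternatives for PAX6 ranged from 2e-13 to 0.0635. ID4, an inhibitor of helix-loop-helix factors, had 8609, 8154 and 8261 normalized counts in morphine libraries 1, 2 and 3, against 10326, 10225 and 9737 in saline libraries 1, 2 and 3. It fell by 0.28 ± 0.0533 (SE) on the log2 scale, but missed the threshold when morphine replicate 2 or 3 or saline replicate 1 or 2 was left out (limma adjusted p = 0.068, 0.0642, 0.0593 and 0.0591; alternatives from 2.9e-10 to 0.0748). ID3, a close relative, had a log2 fold change of 0.03 (95% interval -0.18 to 0.24) and did not pass.

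Reactive genes moved in both directions: 2 of 8 rose, 1 fell and 5 did not pass. The 37.5% called lay between the 27.9% of all genes tested and the 38.4% of those with a mean of 1000 or more. Of the 8 genes, 4 had such a mean. GFAP (ENSMMUG00000013115), the intermediate filament that defines astrocytes and their reactivity, had 41001, 40870.1 and 39745 normalized counts in morphine libraries 1, 2 and 3, against 31282, 29931 and 30267 in saline libraries 1, 2 and 3. The lowest morphine library was well above the highest saline library, and the log2 fold change was 0.41 ± 0.0482 (SE) (limma adjusted p = 0.0057). VIM (ENSMMUG00000003193), vimentin, a filament shared with vessel cells and microglia, had 8745, 8695 and 8953 normalized counts in morphine libraries 1, 2 and 3, against 7241, 7171 and 7143 in saline libraries 1, 2 and 3. It rose by 0.29 ± 0.0452 (SE) on the log2 scale with little spread in either group (limma adjusted p = 0.0109; alternatives from 5.48e-13 to 0.0664).

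NES, nestin, the filament of neural progenitors and of some reactive astrocytes and endothelial cells, had 996, 985 and 915 normalized counts in morphine libraries 1, 2 and 3, against 1261, 1423 and 1238 in saline libraries 1, 2 and 3. It went against the other filaments, with a log2 fold change of -0.44 ± 0.0777 (SE) and a limma adjusted p of 0.0157. Leaving out morphine replicate 2 or 3 ended the call (adjusted p = 0.0506 and 0.0517; alternatives from 2.01e-05 to 0.0547). Of 7 endothelial and mural markers 3 fell and 1 rose, and their part in the fall of NES was not tested.

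STAT3, the transcription factor through which cytokines drive reactivity, had 2934, 2747 and 2784 normalized counts in morphine libraries 1, 2 and 3, against 2741, 2673 and 2770.4 in saline libraries 1, 2 and 3. The groups overlapped, and the log2 fold change was 0.05 (95% interval -0.08 to 0.18). SERPINA3, a secreted protease inhibitor often raised in reactive astrocytes, had 257, 282 and 127 normalized counts in morphine libraries 1, 2 and 3, against 172, 133 and 158 in saline libraries 1, 2 and 3. Morphine libraries 1 and 2 were above all saline libraries, whereas morphine library 3 was below them. It did not pass (log2 fold change 0.45 ± 0.332 (SE); limma adjusted p = 0.361), except without morphine replicate 3 (log2 fold change 0.81, adjusted p = 0.0321; alternatives from 0.0321 to 0.66).

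CHI3L1, a chitinase-like protein of human astrocytes, had 471, 527 and 672 normalized counts in morphine libraries 1, 2 and 3, against 425, 549 and 462 in saline libraries 1, 2 and 3. Its groups overlapped and it did not pass (log2 fold change 0.21 ± 0.168 (SE)). LCN2, lipocalin, an acute-phase protein strongly induced in reactive rodent astrocytes, was near the limit of counting, with 11.7, 16.3 and 8.65 normalized counts in morphine libraries 1, 2 and 3, against 16.8, 31.1 and 39.0 in saline libraries 1, 2 and 3. All morphine values were below the lowest saline value, the highest of them only just, and the spread was wide (log2 fold change -1.14 ± 0.374 (SE); limma adjusted p = 0.0775), and LCN2 passed only without saline replicate 1 (log2 fold change -1.48, adjusted p = 0.0391; alternatives from 0.0391 to 0.186). CD44, a hyaluronan receptor, was also low, with 48.9, 56.3 and 56.7 normalized counts in morphine libraries 1, 2 and 3, against 62.2, 44.1 and 74.9 in saline libraries 1, 2 and 3, and its groups overlapped (log2 fold change -0.13 ± 0.205 (SE)).

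Ratios restate the opposite changes of GFAP and AQP4 library by library. Their separation by group follows from the values above and adds no evidence. The ratio of GFAP to AQP4 normalized counts was 2.310, 2.407 and 2.266 in morphine libraries 1, 2 and 3, against 1.334, 1.183 and 1.250 in saline libraries 1, 2 and 3. The ratio of AGT to AQP4 was 0.915, 0.967 and 0.925 in the morphine libraries and 0.401, 0.362 and 0.395 in the saline libraries. Transcripts differ in length, so a ratio compares libraries and not the levels of the genes, and both pairs were chosen after their values were seen.

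Astrocyte genes outside the 45 also fell more often than they rose. Of 24 such genes tested (of 28 listed), 9 fell and 1 rose, with a median log2 fold change of -0.18. Thus 41.7% were called, against 27.9% of all genes tested and 38.4% of those with a mean of 1000 or more. SPARCL1, a secreted protein that promotes synapses, went from 144309.6 ± 1803 to 87947 ± 399.9 normalized counts (means ± SD of 3 libraries a group) and the adhesion receptor ADGRV1 from 25019 ± 307 to 15071 ± 257. WIF1, a Wnt inhibitor, fell by 0.55 and RFX4, a factor of glial development, by 0.51 on the log2 scale. The potassium channel KCNJ10, also present in oligodendrocytes, fell by 0.65 and its partner KCNJ16 by 0.72. Without 1 library 8 of the 24 fell and 1 rose in each of the 6 fits.

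Reactive genes outside the 45 were mixed. Of 17 tested (of 27 listed, with STEAP4, CXCL10 and CP below the level for testing), 4 rose and 3 fell, with a median of 0.19. The share called was 41.2%, against 27.9% of all genes tested and 38.4% of those with a mean of 1000 or more. Most of the 17 had a mean below 1000. C3, the central complement component, which microglia also make, went from 3419 ± 195 to 6441 ± 107 normalized counts (means ± SD of 3 libraries a group). SERPING1, the inhibitor of complement C1, rose by 0.85 on the log2 scale. FBLN5, a protein of elastic fibres, rose by 1.27 and ANXA2, a membrane-binding annexin, by 0.39, both of which fibroblasts and vessel cells express as well. In the same libraries 4 of 7 microglia markers rose and 2 fell, and 3 of 6 fibroblast markers rose; their part in these 4 rises was not tested. The 3 falls, in AMIGO2, PSMB8 and S1PR3, were lost in most fits on 5 libraries. Of the 6 fits that left out a library, AMIGO2 passed only without morphine replicate 1 or saline replicate 2 (limma adjusted p = 0.0272 and 0.0457), PSMB8 only without saline replicate 1 (0.0335) and S1PR3 only without morphine replicate 1 (0.0335).

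Upstream of STAT3, 4 of 11 genes of gp130 and JAK-STAT signalling fell and 2 rose, so that 54.5% were called against 27.9% of all genes tested. LIFR, the receptor of leukemia inhibitory factor, went from 658 ± 74.9 to 243 ± 45.9 normalized counts and IL6ST, the gp130 subunit shared by this cytokine family, from 1444 ± 72.0 to 722 ± 102 (means ± SD of 3 libraries a group). LIFR fell by 1.44 and IL6ST by 1.01 on the log2 scale. STAT2, a factor of interferon responses, rose by 0.46. JAK2 also fell and TYK2 also rose. Without 1 library 4 of the 11 fell and 1 rose in each of the 6 fits, TYK2 being the rise that was lost (adjusted p between 0.0614 and 0.0779).

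In the BMP pathway, which acts through BMPR1B on the ID genes, 4 of 16 genes fell and 1 rose, so that 31.2% were called, near the share of all genes tested. SMAD5, a transducer of BMP receptors, fell by 0.71 and ID2, a relative of ID4, by 0.48 on the log2 scale, whereas the ligand BMP4 rose by 0.61. The receptor genes BMPR2 and BMPR1A also fell, but BMPR2 missed the threshold whichever library was left out (limma adjusted p between 0.0601 and 0.0904) and of these 6 fits BMPR1A passed only in the one without saline replicate 3 (adjusted p = 0.0442). Of 12 Notch pathway genes 3 rose and 0 fell, a share of 25% and thus close to that of all genes tested. They were the ligands JAG2 and DLL1, with rises of 0.39 and 0.42, and the coactivator MAML1, with 0.27. Without 1 library 0 to 2 of these rises passed, with 0 rises left without morphine replicate 2.

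**Figure D4:**
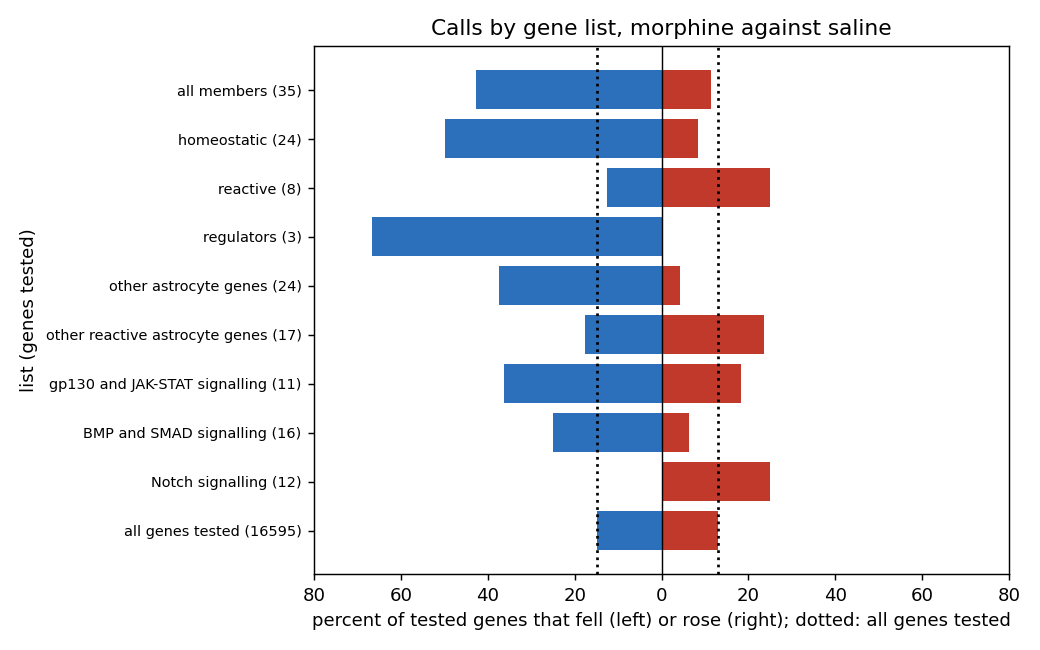
Percent of tested genes in each list that fell (blue, to the left) or rose (red, to the right) with morphine in limma; the number tested stands after each name and the dotted lines are all genes tested (15.0% fell, 12.9% rose). The homeostatic genes extend to the left beyond the dotted line (12 of 24 fell), and the reactive lists extend to both sides.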

How the data were processed

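Polyadenylated RNA of 6 libraries, 3 morphine and 3 saline by the sample titles, was measured. Per the submitters' processing notes, DESeq2 1.18.1, StringTie and Bowtie2 2.1.0 were used, and hg19, a human build, is named; what each was used for is not stated. The deposited identifiers belong to rhesus, so coordinates are left out. The sources used here do not say whether counting was stranded.

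Per the file headers, the authors deposited a normalized count signal for 23191 genes (reads divided by a size factor per library), their log2 fold changes with standard errors, a test score and p-values. In each library 100% of values were whole multiples (within 0.001) of the smallest, so reads could be recovered. Symbols came from a gene name table (15436 of 23191 identifiers).

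Values were tested as log2(value + 1) with limma 3.58.1 (R 4.3.3), for the 16595 genes with a mean of at least 10, two-sided, with Benjamini-Hochberg adjustment over all of them and calls at an adjusted p under 0.05. Fold changes on that scale understate changes of low genes. The tests were tried on simulated data.

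The genes, lists and role groups were chosen with earlier results of these data known. Values in every library were to be given for GFAP, AQP4, ALDH1L1, APOE, VIM, STAT3 (S100B and SOX9 were not analysed here) and up to 4 called genes of each role group, and up to 4 called genes were to be named of each other pathway list. Values of the remaining genes (MLC1, NDRG2, RYR3, SERPINA3, CHI3L1, LCN2, CD44), and TYK2, BMPR1A, P2RY12, PTPRC, COL3A1 and PDGFRA, were added after they had been seen. Alternatives were TMM and upper-quartile scaling, other filters and pseudocounts, the replicate block, leaving out each library, a stricter adjusted p of 0.01, an intensity trend, DESeq2 1.42.0 and edgeR 4.0.16 on recovered reads, which called 6105 and 5636 genes, and the authors' deposited comparison. Within groups, pairs of libraries differed by more than sampling noise (mean chi-square 17.5 to 23.8). Figures were drawn with matplotlib 3.10.9. The values of 1 gene counted in a pathway list are not reported here.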

Additional observations from a re-analysis of the deposited data

How the results depend on the processing

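Of the 35 astrocyte genes, 18 stayed on the same side of the threshold under every alternative run. Most of the 18 had not been called. Of the called genes, only AQP4, SLC39A12, EDNRB, LRP4, AGT and GFAP kept their call in every run. No called gene reversed. With an adjusted p under 0.01, 6 genes fell and 2 rose (5 and 1 homeostatic, 0 and 1 reactive, and 1 regulator that fell). The labels number the replicates alike in both groups. Deviations from the group means correlated at -0.0563, -0.00392 and -0.0284 between same-numbered libraries, and at -0.025 to 0.0524 between libraries of other numbers. With 3 libraries a group, such values cannot show whether same-numbered samples share more than a number. With the replicate block, 5 genes fell and 2 rose (5 and 1 homeostatic, 0 and 1 reactive, 0 regulators that fell), and 9.50% of all genes were called. ALDH1L1, PPP1R3C, ETNPPL, DIO2, PAX6 and VIM lost their call there (limma adjusted p between 0.0517 and 0.0664) but in no fit without 1 library. With no filter on the mean 1 regulator fell. With a minimum mean of 50, which drops LCN2, the reactive median was 0.21. With GFAP counted as homeostatic, the homeostatic median was -0.26, the reactive median 0.048, and 1 reactive gene rose. Leaving out 1 library gave 10 to 14 falls and 3 to 5 rises, with 9 to 11 and 1 to 3 for homeostatic, 0 to 2 and 2 to 3 for reactive and 1 to 2 falls and 0 rises for regulators. The medians then ranged from -0.31 to -0.25 (homeostatic), 0.062 to 0.162 (reactive) and -0.30 to -0.26 (regulators). The cause of these shifts was not tested. Some of these settings also had fewer samples or genes. LCN2 and CD44, the lowest of the genes, had the least precise counts.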
